A study of Mus musculus with 7 samples.

Results

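The 9 genes described here are mouse counterparts of genes in which mutations cause or have been linked to inherited Parkinson disease or parkinsonism: Pink1, Park7, Htra2, Fbxo7, Uchl1, Vps35, Lrrk2, Dnajc6 and Atp13a2. They were given as a list of names, and were looked up by Ensembl identifier among 13641 genes with a transcript start or end event. Of the 9 genes, 8 were found under their own identifier, and the other, Pink1, was found only by its position. Gene values that could be compared between libraries were obtained for 5 of them, Htra2, Fbxo7, Uchl1, Vps35 and Atp13a2.

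Parkinson disease is a loss of dopamine neurons of the midbrain, and the proteins of its inherited forms meet in a few cell systems. Pink1 is a kinase that marks damaged mitochondria for removal, Park7 (DJ-1) protects against oxidative stress, and Htra2 is a protease of the space between the mitochondrial membranes. Fbxo7 and Uchl1 act in the ubiquitin system, Vps35, Lrrk2 and Dnajc6 in the traffic of endosomes and vesicles, and Atp13a2 in the lysosome. Rotenone, which blocks complex I of the mitochondrial respiratory chain, is used to model the disease in animals and cells.

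RNA was sequenced from wild-type mouse neural cells derived from the embryonic stem cell line B6G-2 through embryoid bodies, which were formed for 6 days. Progenitors of day 14 were placed in a differentiation medium and exposed for 1 day, with 1 library each for control, rotenone, the organophosphate chlorpyrifos, the organochlorine DDT, the carbamate carbaryl, the pyrethroid deltamethrin and the neonicotinoid imidacloprid. The stated question was how insecticides disturb the developing nervous system. Neither a dose nor a vehicle is given in the labels, which call the tissue brain, although these are cultured cells of stem cell origin. With 1 library per group there are no replicates, so no value below has an error, no difference has a test, and differences are set against the variation of all genes instead. In bulk RNA, fewer cells of a type and less RNA per cell cannot be told apart.

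Each library listed 93977 to 95776 distinct events of transcript structure, each with a value in FPKM (sequenced fragments scaled to transcript length and to library size). The depth is unknown. A gene's start total is the sum over its first-exon events and its end total the sum over its last-exon events. Both are sums over the same transcript estimates, so their likeness is a check and not a repeat. A gene's value is the mean of the 2 totals, used where they agreed within 0.3 on the log2 scale and the mean over the 7 libraries was at least 1 FPKM, which held for 6299 genes. Cell type markers were instead taken at the larger of their start and end totals, with no agreement or minimum asked. Summed over fixed marker lists, neural progenitor genes stood at 1256 to 1525 FPKM (7 of 8 listed), neuron genes at 232 to 260 (9 of 11), and astrocyte genes at 242 to 272 (8 of 8). Oligodendrocyte-lineage genes stood at 114 to 175 (5 of 8), mesenchymal genes at 25.7 to 36.8, endothelial genes at 1.12 to 1.77, microglial genes at 0 to 0.781 and pluripotency genes at 0 to 0.637. Of 14 markers of midbrain dopamine neurons, Th, Slc6a3, Pitx3, Foxa2 and Aldh1a1 had no start or end event in any of the 7 libraries, while En2 stood at 18.5 to 23.6, En1 at 2.86 to 3.64 and Nr4a2 at 2.60 to 3.43 FPKM. A missing event does not show absence, since the neuronal tubulin Tubb3 had none in any library as well.

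The members covered a wide range of levels. Park7 and Uchl1 were the most abundant, each above 100 FPKM in every library, followed by Vps35, Htra2, Atp13a2 and Pink1 at 9.96 to 64.4 FPKM. Fbxo7 lay between 1.16 and 3.50 FPKM, and Lrrk2 and Dnajc6 had no total above 1.80 FPKM in any library. No usable member reached 2-fold in rotenone against control (0 of 5, against 1.64% of all genes). One member reached it in DDT, Vps35 (1 of 5, against 1.74% of all genes), and none did in chlorpyrifos (1.61% of all genes), carbaryl (2.14%), deltamethrin (1.71%) or imidacloprid (1.72%). At 1.5-fold, Htra2 was past the limit in rotenone (1 of 5, against 6.33% of all genes). Fbxo7 was past it in chlorpyrifos (1 of 5, against 5.90%), carbaryl (1 of 5, against 6.32%) and deltamethrin (1 of 5, against 6.19%), Fbxo7 and Vps35 in DDT (2 of 5, against 6.78%), and no member in imidacloprid (6.00% of all genes). Across all 21 pairs of libraries, 1.61% to 2.14% of genes differed 2-fold, with a median of 1.79% for pairs of exposed libraries and 1.72% for pairs with control. Ratios are log2 differences of FPKM + 1, which understates the change of low genes such as Fbxo7.

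**Figure D1:**
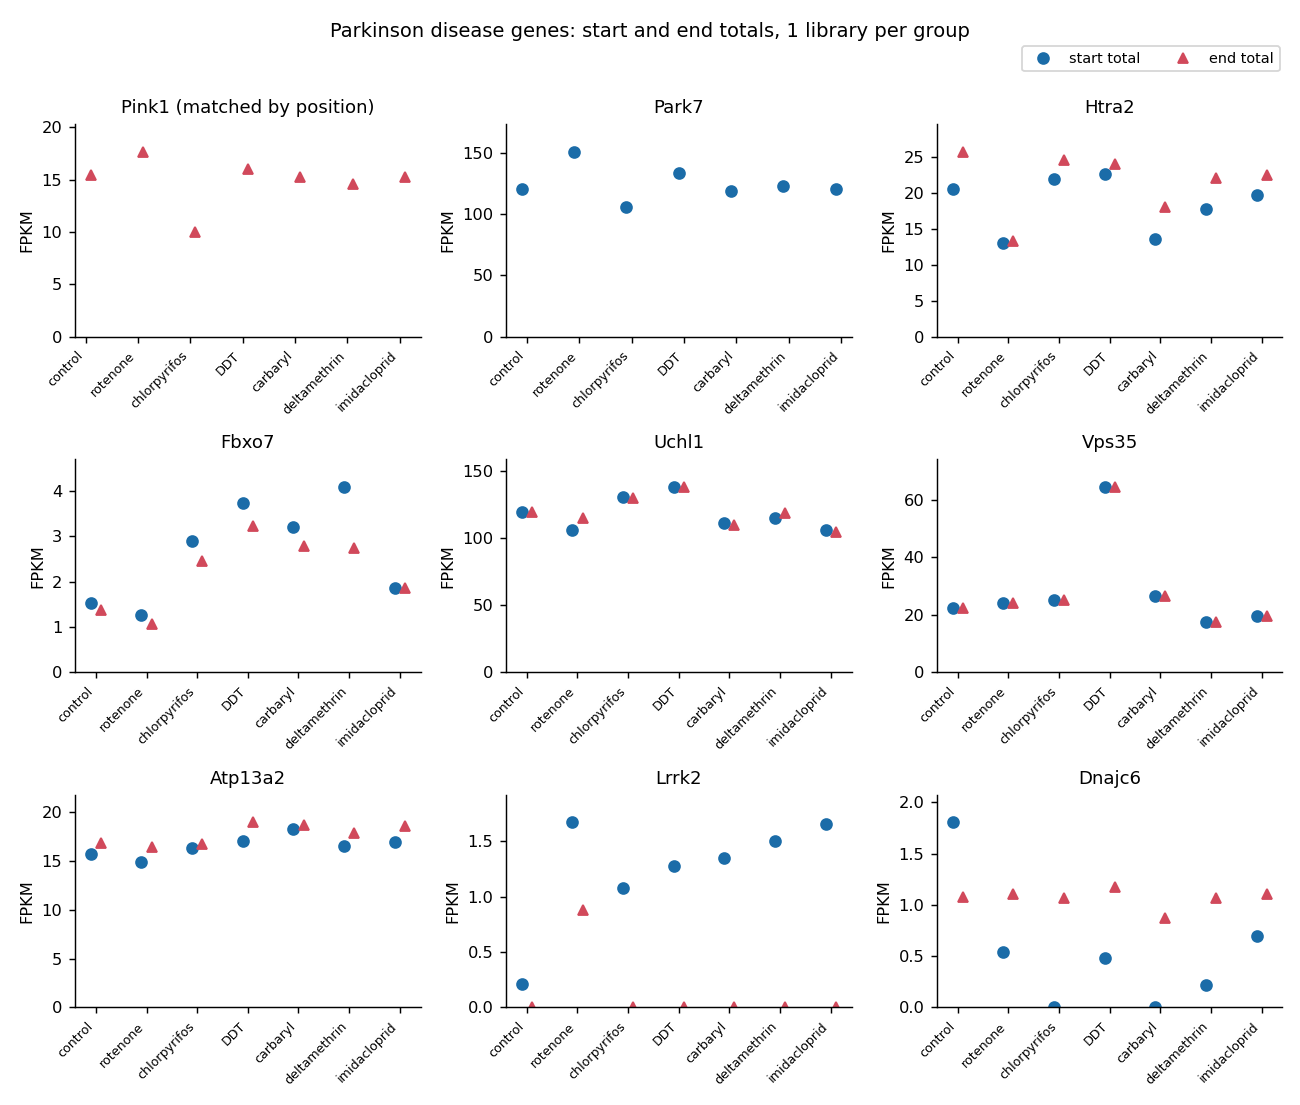
Start totals (circles) and end totals (triangles) in FPKM of the 9 genes in each of the 7 libraries, 1 library per group; a point at 0 is an end that the library did not list, and a total listed in no library is left out. Vps35 in DDT (64.4 FPKM) lies far above its other libraries, Htra2 is lowest in rotenone and carbaryl, and Uchl1 and Atp13a2 are nearly level.

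Among the mitochondrial genes, Park7 encodes a small protein that senses oxidation and is abundant in most cells. Park7 (ENSMUSG00000028964, chromosome 4, 150897133 to 150914437, minus strand, GRCm38) had a start total but no end event. Its start total was 120.2 FPKM in control, 150.9 in rotenone, 105.6 in chlorpyrifos, 133.2 in DDT, 118.8 in carbaryl, 122.8 in deltamethrin and 120.7 in imidacloprid. Rotenone was the highest library and chlorpyrifos the lowest, with control between them. Without an end total to set beside it, no ratio is given.

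The Park7 start total was divided among several first exons, and the division differed more between libraries than the total did. The exon of Park7-201 (150909783 to 150909926) held 71.0 FPKM in control, 125.8 in rotenone, 86.9 in chlorpyrifos, 85.4 in DDT, 77.7 in carbaryl, 75.3 in deltamethrin and 64.5 in imidacloprid. The exon of Park7-202, which lies further into the gene (150909391 to 150909651), held 46.6 FPKM in control, 16.6 in rotenone, 14.4 in chlorpyrifos, 45.9 in DDT, 43.9 in deltamethrin and 45.5 in imidacloprid. It was not listed in carbaryl. An exon farther upstream, that of Park7-204 (150914320 to 150914437), held 39.0 FPKM in carbaryl and 0.574 to 8.49 FPKM in the other 6 libraries. Thus the Park7-201 exon made up 83.4% of the start total in rotenone and 82.3% in chlorpyrifos, against 59.1% in control. In carbaryl the Park7-204 exon took 32.9%, against 1.21% in control.

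Such divisions were often unlike between libraries. The largest change of any start share of Park7 was 27.7 percentage points in rotenone, 25.1 in chlorpyrifos and 38.7 in carbaryl. Changes of 10 points or more were found in 31.9%, 32.3% and 31.5% of genes with several starts in those comparisons, so passing that limit was common. How many genes changed by as much as Park7 was not counted. In DDT, deltamethrin and imidacloprid the largest change for Park7 was 2.97 to 5.82 points, and 32.6%, 31.6% and 32.0% of genes changed by 10 points or more. The annotated coding transcripts of Park7 that begin at these exons share 1 first coding base (150908407), so the exons that differed lie ahead of the coding sequence. The 250 bases before the RefSeq start of Park7, which lies a few bases inside the Park7-201 exon, are shown because that exon held the largest share of the start total in every library. They are at chr4:150909922-150910171 on the minus strand (RefSeq, GRCm38.p6), written 5′ to 3′ with each CpG in capitals.
Park7 promoter: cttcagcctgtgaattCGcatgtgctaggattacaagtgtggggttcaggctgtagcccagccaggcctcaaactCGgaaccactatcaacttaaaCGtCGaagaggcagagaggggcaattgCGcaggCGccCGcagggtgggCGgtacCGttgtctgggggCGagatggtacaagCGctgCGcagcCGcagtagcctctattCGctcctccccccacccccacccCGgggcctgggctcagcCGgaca
The sequence holds 16 CpG, where the median of all promoters of this length is 6 and 25.4% have at least 16. The core of the antioxidant response element (TGACNNNGC, either strand) was found in none of the 9 RefSeq promoter windows of 7 members, Park7 included, and in 12.4% of all promoters. The palindrome CACGTG, the E-box that the lysosomal regulator TFEB can bind, was found in 1 of the 9 windows, that of Fbxo7, and in 7.15% of all promoters.

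**Figure D2:**
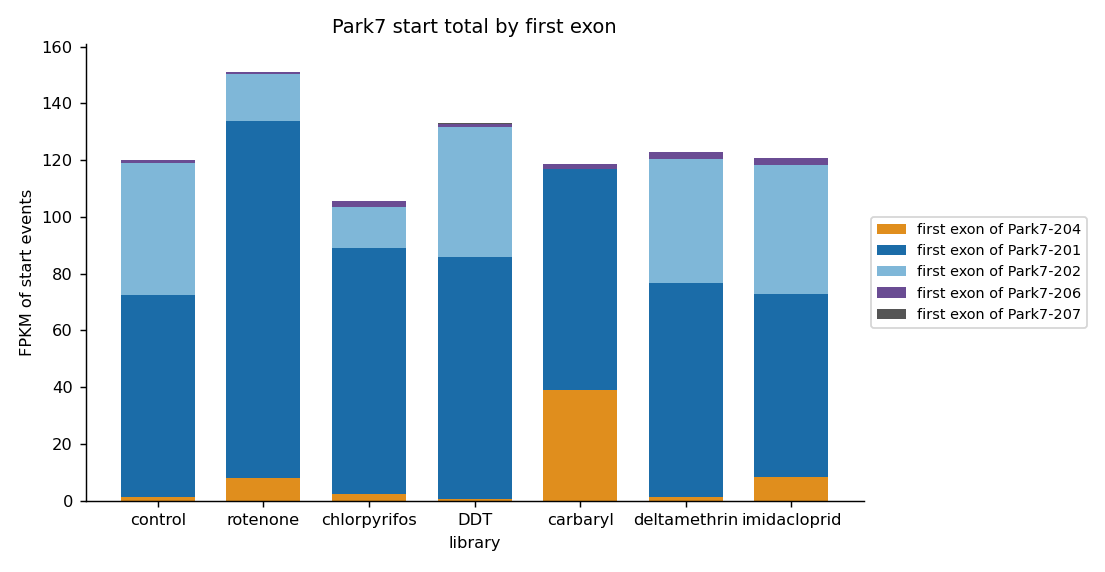
FPKM of Park7 start events in each of the 7 libraries (1 per group), stacked by first exon and named by 1 annotated transcript that begins there. The exon of Park7-202 is small in rotenone and chlorpyrifos and missing in carbaryl, where the exon of Park7-204 reaches 39.0 FPKM.

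Pink1 (ENSMUSG00000028756) had no event under its own identifier. An end event that coincides with the last exon of Pink1 (chromosome 4, 138313409 to 138314213, minus strand) is listed in the files under Gm27646, a gene of 110 bases that lies inside Pink1. That event stood at 15.4 FPKM in control, 17.7 in rotenone, 9.96 in chlorpyrifos, 16.0 in DDT, 15.2 in carbaryl, 14.6 in deltamethrin and 15.3 in imidacloprid. Rotenone was again the highest library and chlorpyrifos the lowest, as for Park7. Control and the 4 other libraries lay between 14.6 and 16.0 FPKM. No start event was listed for Pink1, so no ratio is given.

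Htra2, a serine protease that can be released from mitochondria to bind inhibitors of apoptosis, had the ratio farthest from 0 of the 5 usable members in rotenone. Htra2 (ENSMUSG00000068329, chromosome 6, 83051266 to 83055273, minus strand) stood at 23.2 FPKM in control, 13.2 in rotenone, 23.2 in chlorpyrifos, 23.3 in DDT, 15.8 in carbaryl, 19.9 in deltamethrin and 21.1 in imidacloprid. Rotenone and carbaryl were the lowest, and chlorpyrifos and DDT were level with control. The log2 ratio in rotenone was -0.77, and 1.74% of all genes had a lower one. Start totals gave -0.63 (13.0 against 20.6 FPKM) and end totals -0.90 (13.3 against 25.7 FPKM). An inner exon of 195 bases (83053329 to 83053523) held 18.6 FPKM in rotenone and 26.5 in control, above both totals in each. The ratio rests on the listed starts and ends, and that exon differed less. In carbaryl the log2 ratio of Htra2 was -0.53, with 3.74% of genes lower, and in the other 4 libraries it lay between -0.21 and 0.01. Aup1 overlaps Htra2 by 753 bases on the opposite strand, and its start total was 15.1 FPKM in control and 16.4 in rotenone. The Htra2 first exon that held 98.0% to 100% of the start total (83053921 to 83054442) lies outside the Aup1 span (83054521 to 83057808). The counting is not stated to use strand, and the part of Aup1 in these values was not tested. In rotenone the summed mesenchymal markers were also the highest of the 7 libraries (36.8 FPKM, 25.7 to 28.5 elsewhere) and the progenitor markers the lowest (1256 FPKM, 1348 to 1525 elsewhere). Of the progenitor sum in rotenone 995.1 FPKM was Vim, which was lowest there. Nes was lowest in rotenone too, at 165.4 FPKM against 175.6 to 206.0 elsewhere. Sox2, Pax6 and Mki67 were below control in rotenone, though not at their lowest. Hes5 (10.2 FPKM) and Fabp7 (8.65 FPKM) were at their highest there. The part of these cells in the Htra2 value was not tested.

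At an Htra2 intron, the spliced form was lower in rotenone than in control, and the retained form was not. For an intron of 234 bases (83052804 to 83053037), the form that keeps the intron, as in the annotated transcript Htra2-207, stood at 5.75 FPKM in control and 7.43 in rotenone. The form that removes it stood at 16.4 FPKM in control and 7.90 in rotenone. The retained form was thus 26.0% of their sum in control, 48.5% in rotenone, 28.0% in chlorpyrifos, 17.8% in DDT, 11.4% in carbaryl, 7.29% in deltamethrin and 29.0% in imidacloprid. Rotenone was the highest library and deltamethrin the lowest. Carbaryl, the other library with a low Htra2 total, had 1.70 FPKM of the retained form, so the 2 libraries were not alike in this. Together the retained and spliced forms held 15.3 FPKM in rotenone, more than the end total there (13.3 FPKM). The lower Htra2 total was therefore not assigned to a form. The change of 22.5 percentage points in rotenone was of 10 points or more, as were the changes of 20.9% of all retained introns in that comparison. The same retained form is also listed against another spliced form, which removes 311 bases and held 3.60 FPKM in control and 3.14 in rotenone. Against that form its share was 61.5% in control and 70.3% in rotenone, a change of 8.78 points, below the limit. In carbaryl alone, an Htra2 exon of 96 bases (83051742 to 83051837) was skipped in 2.75 FPKM of transcripts, and it was included in 84.7% there and in over 99.9% elsewhere. Shares of included exons changed by 10 points or more at 23.7% of skipped exons in carbaryl.

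Atp13a2 encodes a lysosomal transport ATPase that moves polyamines and is needed for normal lysosome function. Its level was the most even of the 5 usable members. Atp13a2 (ENSMUSG00000036622, chromosome 4, 140986873 to 141007330, plus strand) stood at 16.3 FPKM in control, 15.7 in rotenone, 16.5 in chlorpyrifos, 18.0 in DDT, 18.5 in carbaryl, 17.2 in deltamethrin and 17.8 in imidacloprid. The log2 ratio was -0.06 in rotenone and between 0.02 and 0.17 in the other 5, and the highest library was 1.18 times the lowest.

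Under that even total, 1 transcript form of Atp13a2 was far from level. The form that keeps an intron of 77 bases (141002547 to 141002623), as annotated transcript Atp13a2-206 does, stood at 2.73 FPKM in control, 6.46 in rotenone, 6.00 in chlorpyrifos, 0.312 in DDT, 0.248 in carbaryl, 0.296 in deltamethrin and 0.347 in imidacloprid. Rotenone and chlorpyrifos were highest, control was between, and the other 4 were near 0.3 FPKM. As a share of retained plus spliced forms, this was 17.5% in control, 41.0% in rotenone, 36.9% in chlorpyrifos and 1.38% to 1.92% in the other 4. The spliced form was 9.27 FPKM in rotenone and 10.3 in chlorpyrifos, and between 17.1 and 18.3 FPKM in DDT, carbaryl, deltamethrin and imidacloprid. The changes from control were 23.5 percentage points in rotenone and 19.4 in chlorpyrifos, and between -16.1 and -15.6 in the others. Changes of 10 points or more were common at retained introns, at 20.9% of them in rotenone, 22.5% in chlorpyrifos, 21.3% in DDT, 20.4% in carbaryl, 21.8% in deltamethrin and 21.2% in imidacloprid. A single exon event of 806 bases near the gene's end (141006043 to 141006848), which takes in further introns of 85 and 175 bases, carried the same FPKM in every library, as all 3 introns are kept in Atp13a2-206.

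The intron of 77 bases, the shortest of the others in that form and the Htra2 intron are shown because the shares of these forms were far apart between libraries. All 3 begin with GT and end with AG, in capitals, and are written 5′ to 3′ from GENCODE M21 transcripts (GRCm38).
Atp13a2 intron at chr4:141002547-141002623, plus strand: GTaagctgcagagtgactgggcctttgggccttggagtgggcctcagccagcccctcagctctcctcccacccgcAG
Atp13a2 intron at chr4:141006267-141006351, plus strand: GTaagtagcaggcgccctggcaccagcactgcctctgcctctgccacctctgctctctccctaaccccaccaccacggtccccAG
Htra2 intron at chr6:83052804-83053037, minus strand: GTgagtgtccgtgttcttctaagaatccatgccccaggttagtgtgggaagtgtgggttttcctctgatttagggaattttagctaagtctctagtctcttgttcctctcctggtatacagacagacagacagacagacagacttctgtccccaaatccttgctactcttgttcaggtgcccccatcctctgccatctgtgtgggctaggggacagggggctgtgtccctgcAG
The printed Atp13a2 introns are short, and their GC content is 66.2% and 65.9%, against 51.3% in the Htra2 intron. Neither of these Atp13a2 lengths (77 and 85 bases) is a multiple of 3, and the Htra2 length of 234 is. Each intron was read on from the exon before, in the frame that exon has when the introns ahead of it are removed. The first stop codon of the Htra2 intron is then at position 40 of the intron. That of the Atp13a2 intron of 85 bases is at position 2, and the intron of 77 bases has none. The retained Atp13a2 form keeps both introns, and the intron of 77 bases, which comes first, shifts the frame. The stop at position 2 is therefore not in frame in that form, and its first stop was not determined.

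**Figure D3:**
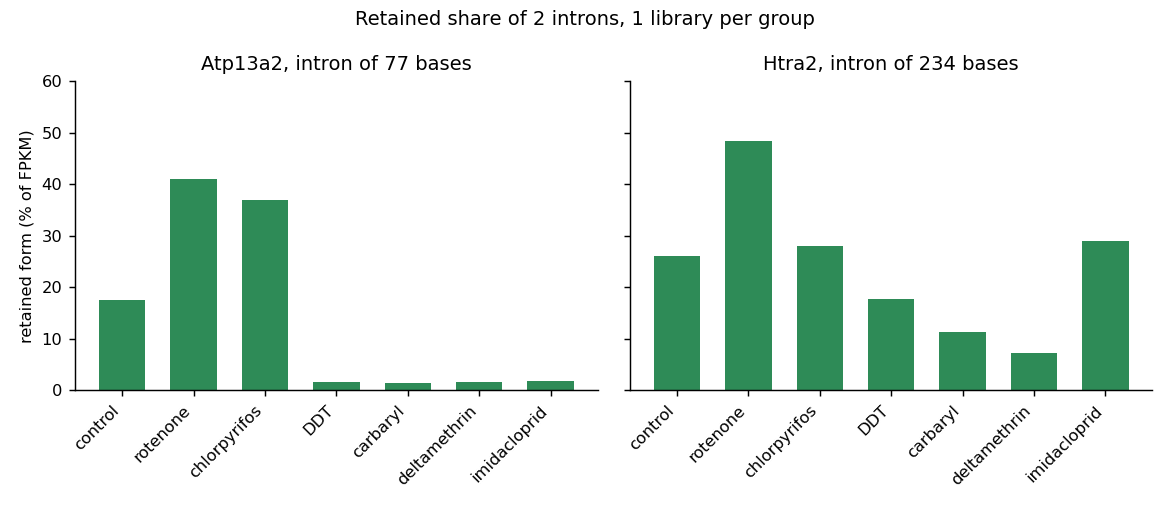
Share of the intron-retaining form, in percent of the FPKM of retained and spliced forms, in each of the 7 libraries (1 per group) for an Atp13a2 intron of 77 bases and an Htra2 intron of 234 bases. Both shares are highest in rotenone, at 41.0% and 48.5%, while chlorpyrifos is high for Atp13a2 (36.9%) and near control for Htra2 (28.0%).

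Of the ubiquitin genes, Fbxo7 encodes an F-box protein, the part of an SCF ubiquitin ligase that selects substrates, and it also binds Parkin. Fbxo7 (ENSMUSG00000001786, chromosome 10, 86021972 to 86051873, plus strand) stood at 1.45 FPKM in control, 1.16 in rotenone, 2.68 in chlorpyrifos, 3.50 in DDT, 2.996 in carbaryl, 3.42 in deltamethrin and 1.86 in imidacloprid. Rotenone and control were the lowest, and 4 libraries were above 2.6 FPKM. The log2 ratio was -0.18 in rotenone, 0.59 in chlorpyrifos, 0.88 in DDT, 0.71 in carbaryl, 0.85 in deltamethrin and 0.22 in imidacloprid. Between 97.4% and 98.7% of genes had a lower ratio than Fbxo7 in chlorpyrifos, DDT, carbaryl and deltamethrin. Those comparisons share the control library, where Fbxo7 was low, so they are not separate observations. Against the median of the 6 other libraries in place of control, the Fbxo7 log2 ratio was -0.83 in rotenone and 0.10 to 0.46 in those 4.

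A pair of first exons of Fbxo7 differed between libraries in which was listed. The exon of Fbxo7-201 (86021972 to 86022144) held 1.37 FPKM in control, 0.233 in rotenone, 0.941 in chlorpyrifos, 3.41 in DDT, 0.904 in carbaryl and 1.99 in deltamethrin. It was not listed in imidacloprid. The exon of Fbxo7-202 (86022189 to 86022330) was not listed in control, rotenone or DDT and held 1.65 to 2.02 FPKM in the other 4. A form that skips an exon of 295 bases (86024416 to 86024710) was listed in DDT only, at 2.47 FPKM. All of these values are below 5 FPKM, and the depth behind them is unknown.

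Uchl1, a deubiquitinating enzyme that is among the most abundant proteins of neurons, was close to level. Uchl1 (ENSMUSG00000029223, chromosome 5, 66676091 to 66687234, plus strand) stood at 119.6 FPKM in control, 110.4 in rotenone, 130.5 in chlorpyrifos, 138.1 in DDT, 110.5 in carbaryl, 116.7 in deltamethrin and 105.6 in imidacloprid. The log2 ratio was -0.11 in rotenone, and it ranged from -0.18 in imidacloprid to 0.21 in DDT. The highest library was 1.31 times the lowest, where 35.3% of all genes reached 1.5 times. In chlorpyrifos and imidacloprid a second first exon was listed for Uchl1, which ends 1 base earlier (at 66676321 in place of 66676322) and matches no annotated transcript. It held 32.6 FPKM in chlorpyrifos and 16.7 in imidacloprid and was not listed in the other 5 libraries. The junction of exons 1 and 2 (exon 1 ends at chr5:66676322, plus strand) is shown with the base in question, the last of exon 1, in capitals.
Uchl1 exon 1 to exon 2: atggagattaaccccgaGatgctgaacaaa

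**Figure D4:**
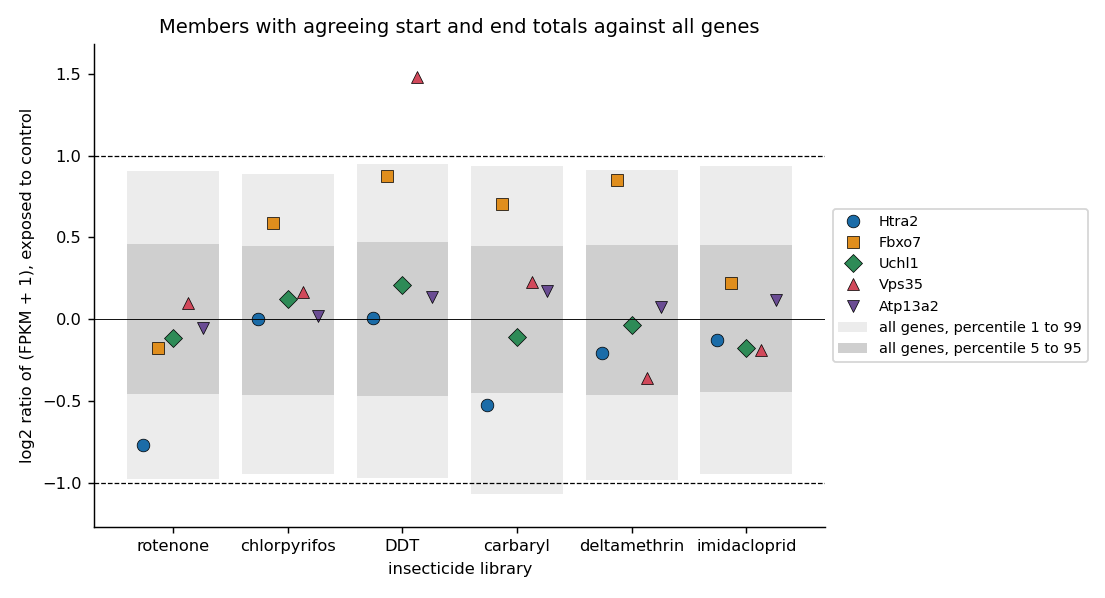
Log2 ratios of FPKM + 1, exposed to control, of the 5 usable members in each comparison (points), with the range of all genes between percentiles 1 and 99 (light bars) and 5 and 95 (dark bars); dashed lines mark 2-fold. Vps35 in DDT, at 1.48, lies beyond the dashed line, and Htra2 in rotenone, at -0.77, is outside the dark bar but inside the light one.

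Vps35 is the core of the retromer, the coat that returns membrane proteins from endosomes to the Golgi and the cell surface, and it was the member with the largest ratio in the series. Vps35 (ENSMUSG00000031696, chromosome 8, 85260392 to 85299802, minus strand) stood at 22.4 FPKM in control, 24.1 in rotenone, 25.2 in chlorpyrifos, 64.4 in DDT, 26.4 in carbaryl, 17.3 in deltamethrin and 19.5 in imidacloprid. DDT stood alone, at 2.44 times the next library, and the other 6 lay between 17.3 and 26.4 FPKM. The log2 ratio was 1.48 in DDT, where 99.6% of genes had a lower one, 0.10 in rotenone, 0.16 in chlorpyrifos, 0.23 in carbaryl, -0.36 in deltamethrin and -0.19 in imidacloprid. A gap of 2-fold between the highest and the next library was found in 8 of 6247 genes (0.128%), and DDT was the highest library in 2 of those 8. The start and end totals of Vps35 were equal in every library, so the end total adds nothing to the start total. Orc6 overlaps Vps35 by 171 bases on the opposite strand, and its start total was 34.0 FPKM in DDT and 33.1 to 40.8 over all 7 libraries. The listed first exon of Vps35 has 9 bases (85299455 to 85299463) and lies outside the Orc6 span (85299632 to 85308278). The part of Orc6 in the Vps35 value was not tested. In DDT the summed oligodendrocyte-lineage markers were the lowest of the 7 libraries, at 114.1 FPKM where the others had 162.0 to 174.9. Nearly all of that sum was Olig2, at 109.7 FPKM in DDT and 154.5 to 169.1 elsewhere, while Cspg4 and Mbp were not lowest in DDT, and their part in the Vps35 value was not tested.

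Lrrk2 encodes a large kinase that phosphorylates Rab proteins on membranes. Lrrk2 (ENSMUSG00000036273, chromosome 15, 91673175 to 91816120, plus strand) had a start total of 0.207 FPKM in control, 1.67 in rotenone, 1.07 in chlorpyrifos, 1.28 in DDT, 1.35 in carbaryl, 1.503 in deltamethrin and 1.65 in imidacloprid. Control was below all 6 exposed libraries. The first exon of the full-length transcript (91673175 to 91673437) was not listed in control and stood at 1.01 to 1.63 FPKM in the exposed libraries. Of all 31841 start events, 28 were at 1 FPKM or more in the 6 exposed libraries and not listed in control. The same count with another library as the missing one was 26 to 42, so control was not unlike the others in this. An end event of Lrrk2 was listed in rotenone only (0.878 FPKM, 91709468 to 91709502), at a boundary that matches no annotated transcript, so no gene value or ratio is given.

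Dnajc6 encodes auxilin, which recruits Hsc70 to strip clathrin from vesicles at synapses. Dnajc6 (ENSMUSG00000028528, chromosome 4, 101496648 to 101642799, plus strand) had an end total of 1.07 FPKM in control, 1.10 in rotenone, 1.06 in chlorpyrifos, 1.17 in DDT, 0.871 in carbaryl, 1.06 in deltamethrin and 1.10 in imidacloprid. Its start total was 1.80 FPKM in control, 0.537 in rotenone, 0.482 in DDT, 0.219 in deltamethrin and 0.697 in imidacloprid, and no start was listed in chlorpyrifos or carbaryl. The end totals were close to each other while the start totals were not, and the 2 ends disagreed, so no ratio is given.

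Of the 5 usable members, 3 (Htra2, Fbxo7 and Vps35) had a highest library at least 1.5 times the lowest, against 35.3% of all genes. Of these, Fbxo7 (3.01) and Vps35 (3.73), were at 2 times or more, against 15.3% of all genes. Htra2, Fbxo7 and Atp13a2 were lowest in rotenone, while Uchl1 was lowest in imidacloprid and Vps35 in deltamethrin. For Atp13a2 rotenone was close to control (15.7 against 16.3 FPKM). The share of all genes that were lowest in rotenone was not counted, so this order has no background. For the 3 variable members, genes with the most similar pattern over the 7 libraries were ranked among 4596 or 4597 genes of at least 5 FPKM by Pearson's r of log2(FPKM + 1). Among the 3 highest for Htra2 were Ncoa4 (0.97) and Ptk2 (0.96). Ncoa4 stood at 23.4 FPKM in control, 3.19 in rotenone and 4.21 in carbaryl, and Ptk2 at 28.1, 12.4 and 13.2 FPKM in these libraries. For Fbxo7 the 3 highest were Ralgds (0.97), Golt1b (0.96) and Ahcyl1 (0.96), and for Vps35 they were Syp (0.97), Plekha3 (0.96) and Pcdh8 (0.96). All points come from the same 7 libraries, and DDT was the highest library for all 3 genes listed with Vps35. Syp was 17.3 FPKM there and 13.7 to 15.5 elsewhere.

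The genes that work with the members were described in 9 lists, of which 128 of 222 distinct genes were usable. In rotenone, 2 of these 128 genes reached 2-fold, Picalm and Atp6v1a, against 1.64% of all genes. Over the other comparisons 2 to 4 did. The median log2 ratio of all genes was 0.01 in rotenone. Of the mitophagy genes around Pink1 and Parkin, 8 of 19 usable members were higher in rotenone and 11 lower, with a median of -0.05. Against the median of the 6 other libraries that median was 0.03. The autophagy receptor Sqstm1 stood at 31.2 FPKM in rotenone (log2 ratio -0.78) where control had 54.4 and the other 5 libraries had 50.7 to 61.4. The mitochondrial transport GTPase Rhot1 was at 13.5 FPKM against 22.2 in control (-0.68), and at 13.7 to 14.6 in chlorpyrifos, DDT and imidacloprid too. Ube2n, a ubiquitin-conjugating enzyme, was at 33.5 FPKM in rotenone (-0.48), 31.3 in chlorpyrifos, 35.3 in deltamethrin and 36.1 in carbaryl, with 47.2 in control, 42.5 in DDT and 46.6 in imidacloprid.

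Around Htra2, the mitochondrial proteases and inhibitors of apoptosis had 2 of 7 usable members higher in rotenone and 5 lower (median -0.08). The largest ratio was that of the inner-membrane protease Yme1l1, 21.1 against 25.4 FPKM (-0.26), followed by Clpx (-0.16) and Casp9 (0.13). Genes of DJ-1 and oxidative defence had 9 of 16 higher (median 0.03). The Daxx gene, whose protein DJ-1 can hold in the nucleus, was at 7.17 FPKM in rotenone (-0.91) and 8.60 in imidacloprid against 14.3 in control, and at 13.3 to 15.6 in the other 4. The lipid peroxidase Gpx4 was at 76.1 against 60.5 FPKM (0.33). Heme oxygenase Hmox1 was at 24.9 against 19.8 FPKM (0.31), and its highest library was DDT, at 31.0 FPKM. Ubiquitin hydrolases and SCF subunits, the group of Uchl1 and Fbxo7, had 5 of 9 higher (median 0.03, and -0.02 against the median of the 6 other libraries). The SCF adaptor Skp1a was at 105.1 FPKM in rotenone (-0.49) where control had 148.5 and the other 5 had 143.2 to 159.0. The proteasome-bound hydrolase Usp14 was at 33.3 FPKM against 19.8 in control (0.73), at 34.1 in chlorpyrifos, 36.3 in carbaryl and 40.4 in imidacloprid, and at 19.8 in DDT and 21.7 in deltamethrin.

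Retromer and WASH genes had 8 of 12 usable members higher in rotenone (median 0.05). Vps29, which forms the retromer with Vps35, was at 30.4 FPKM in rotenone against 21.3 in control (0.50), and at 21.1 in DDT, the library where Vps35 was highest. Washc5 was at 13.5 against 19.6 FPKM (-0.50), and at 12.2 to 13.1 in the other 5 exposed libraries, so control was the highest. Washc4 was at 7.30 against 10.5 FPKM (-0.47). The Rab substrates and regulators of Lrrk2 had 13 of 21 higher (median 0.02). Rab8a (-0.17) and Ywhah (0.14) were close to control.

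Clathrin genes, the partners of Dnajc6, had 8 of 15 higher in rotenone (median 0.03) with values that were far apart. The clathrin assembly protein gene Picalm was at 25.9 FPKM in rotenone (-1.09), 28.7 in chlorpyrifos and 24.7 in imidacloprid, while control had 56.1 and the other 3 had 50.7 to 62.9. The adaptor subunit gene Ap2b1 was at 31.6 FPKM against 15.6 in control (0.97), and at 15.0 in deltamethrin and 32.5 to 52.2 in the other 4. Its partner Ap2s1 was at 61.3 FPKM in rotenone (-0.75) against 103.8 in control and 95.5 to 108.0 elsewhere.

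The lysosomal genes around Atp13a2 had 19 of 22 usable members higher in rotenone, with a median log2 ratio of 0.13. The same list had 15 to 19 of 22 higher in each of the other 5 comparisons, with medians of 0.03 to 0.09, and all 6 comparisons share the control library. Against the median of the 6 other libraries in place of control, the rotenone median was 0.07. A subunit of the proton pump, Atp6v1a, went the other way, at 15.6 FPKM in rotenone (-1.04) where control had 33.0 and the other 5 had 33.1 to 35.3. The cholesterol exporter Npc1 was at 15.0 FPKM in rotenone against 7.46 in control (0.92), at 8.09 in imidacloprid and at 15.4 to 17.3 in the other 4. Hexa, a lysosomal hexosaminidase gene, was at 22.2 against 15.9 FPKM (0.46). Other genes linked to parkinsonism had 10 of 12 usable members higher in rotenone (median 0.11), among them the clathrin-uncoating kinase gene Gak (13.3 against 8.83 FPKM, 0.54). Gak was at 3.55 FPKM in carbaryl, the only library with Gak below control.

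**Figure D5:**
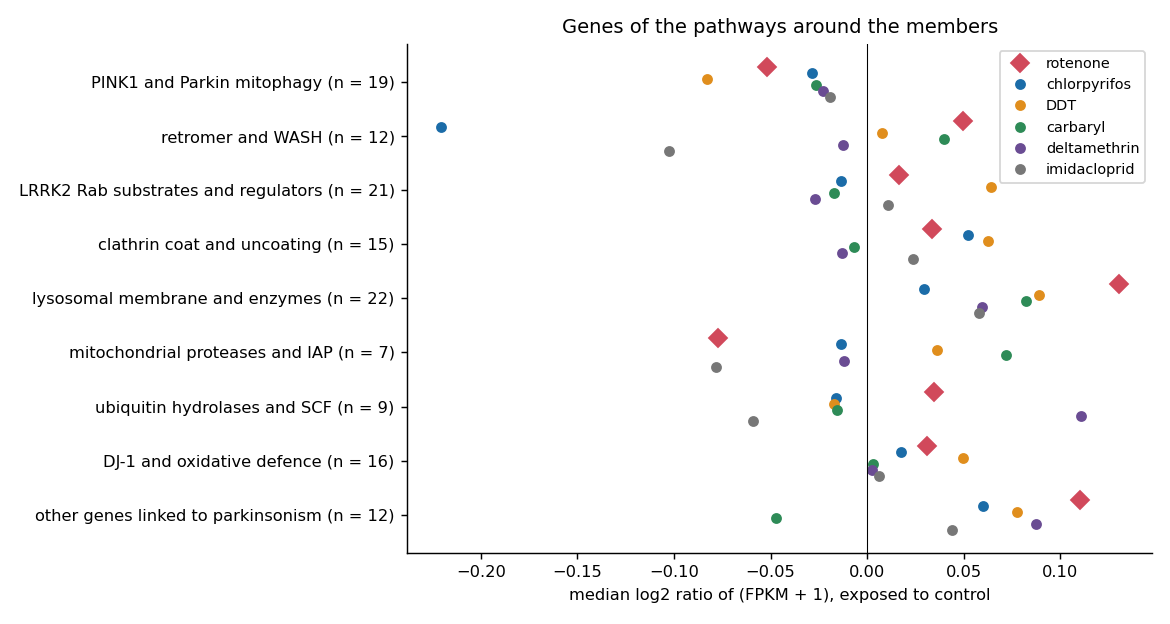
Median log2 ratio of FPKM + 1, exposed to control, of the usable genes of 9 lists around the members, for rotenone (diamonds) and the other 5 insecticides (circles); n is the number of usable genes in a list. Lysosomal genes have their highest median in rotenone (0.13) and are above 0 in all 6 comparisons, which share 1 control library.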

How the data were processed

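The authors' deposited FPKM values were used without further scaling. Per the file headers, each row is 1 event of transcript structure with its FPKM and a gene identifier. Per the submitters' processing notes, bcl2fastq 2.17.1.14, cutadapt 1.9.1, HISAT2 2.0.1 and the build GRCm38 were used; which tool computed FPKM is not stated in those notes. The depth is unknown, so no interval is given. Groups came from the sample titles, and no library was left out.

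Start and end events were summed per gene identifier with pandas 2.3.3, and an end total under 5% of the other counted as missing. Event boundaries were compared with GENCODE M21, where 95.4% matched 1 gene. Lines naming a different gene than the matched position held 6.51% of that FPKM. Log2 ratios used a pseudocount of 1 FPKM, and none is given for a gene listed at 0. Shares of splicing forms and starts were compared where the sum reached 5 FPKM in both libraries. A change of 10 points was called, a limit chosen after the data had been seen.

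The members and lists were chosen with earlier results of these data known. Named partner genes are, per list, up to 3 with the largest absolute rotenone ratio at a mean of 5 FPKM or more, and any at 2-fold in rotenone. Not all genes chosen this way are reported here. Sums and ratios were tested on simulated data. Alternatives were tried for the end used, matching by position, repeated lines, pseudocount, scaling, reference library, minimum, agreement and fold.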

Additional observations from a re-analysis of the deposited data

How the results depend on the processing

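Under the alternatives, 286 log2 ratios of members moved by less than the SD of all genes' ratios and 8 by more, all 8 of Fbxo7. Many of the 286 could not move. No start or end line was repeated, and the minimum and the agreement of ends only decide which genes are used. Those settings account for 24 ratios at a minimum of 5 FPKM and 30 at each of the others. Vps35 could not move with the end used, as its totals are equal. The only member ratio at 2-fold, that of Vps35 in DDT, kept its sign. Some smaller ratios changed sign. Fbxo7 in imidacloprid went from 0.22 to -0.43 against the median of the 6 other libraries. Uchl1 in chlorpyrifos went from 0.13 to -0.07 with matching by position. The count of members at 2-fold in rotenone stayed 0 except at a limit of 1.5-fold, where it was 1 (Htra2). At 1.5-fold the count was also 1 in chlorpyrifos, 2 in DDT, 1 in carbaryl and 1 in deltamethrin. With a pseudocount of 0.1 FPKM it was 2 in DDT and 1 in deltamethrin, since Fbxo7 then passed (log2 ratios 1.21 and 1.18), and start totals alone gave 1 in deltamethrin. The median share of genes at 2-fold over the 21 pairs was 1.74%, and became 3.16% with a pseudocount of 0.1 FPKM and 6.32% at 1.5-fold. With a minimum of 5 FPKM, 1 member in place of 2 varied 2-fold over the 7 libraries, because Fbxo7 was left out. Counts of genes at 2-fold were 101 to 134, and became 190 to 216 with a pseudocount of 0.1 FPKM, 51 to 64 against the median of the other libraries, 66 to 99 at a minimum of 5 FPKM, 238 to 268 with no agreement of ends and 370 to 425 at 1.5-fold. Of 90 list medians for rotenone, 4 moved beyond their spread over the pairs. The mitophagy median was -0.09 from start totals and 0.03 against the median of the other libraries. With no agreement of ends asked, the median of mitochondrial proteases was 0.06 and that of ubiquitin genes -0.04. No paired analysis was possible because each group has 1 library, and no library could be left out for the same reason. The depth behind the low values of Fbxo7, Lrrk2 and Dnajc6 is unknown.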

Other observations

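Syn3, a synapsin gene that lies beside Fbxo7 on the opposite strand and was chosen after its values were seen, had an end total of 0.155 FPKM in control, 1.83 in rotenone, 1.82 in chlorpyrifos, 1.49 in DDT, 1.11 in carbaryl, 1.92 in deltamethrin and 0.980 in imidacloprid. Control was the lowest library for Syn3, as it was for the start total of Lrrk2, and the listed Syn3 end event (chromosome 10, 86048669 to 86055664), which runs past the annotated end of Syn3, overlaps the last exon of Fbxo7 by 3205 bases. The part of either gene in the values of the other was not tested. The synaptic vesicle gene Syt1, also chosen after its values were seen, stood at 3.07 FPKM in control and at 11.6 to 14.7 FPKM in the 6 exposed libraries. These Syt1 values are the larger of its start and end totals, as for the other cell type markers.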
